A study of Mus musculus with 6 samples.

Results

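Wnt ligands are secreted lipid-modified proteins that bind Frizzled receptors on nearby cells. Each is palmitoleoylated in the endoplasmic reticulum by the acyltransferase Porcn and then carried to the cell surface by the transmembrane protein Wls. Some ligands mainly stabilise beta-catenin in the receiving cell, and others mainly act through planar polarity and calcium signals. In bone, ligands of both kinds act on osteoblast formation. The 10 genes described here are 8 ligand genes (Wnt2b, Wnt4, Wnt5a, Wnt5b, Wnt9a, Wnt10b, Wnt11 and Wnt16) and the secretion genes Porcn and Wls. They were picked by gene symbol, out of 20071 Ensembl gene IDs in the count table.

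The counts came from mesenchymal stem cells (MSCs) grown from the femoral marrow of 6-week-old C57BL/6J mice. The mice carried floxed Pcif1 alleles, and the study compared Prrx1-Cre;Pcif1fl/fl animals with Pcif1fl/fl littermates without the Cre. The sample labels call these groups Pcif1 CKO and WT, and the second is named Pcif1fl/fl here. PCIF1 is the enzyme that methylates an adenosine next to the mRNA cap, giving the mark m6Am, and Prrx1-Cre is a recombinase driven in limb mesenchyme, so by design cells outside that lineage keep Pcif1. All 6 libraries, 3 of each group, came from cells kept for 7 days in osteogenic medium with dexamethasone at 100 nM, ascorbic acid at 50 µg/mL and β-glycerophosphate at 5 mM. The sources used here do not say whether the libraries of a group came from separate animals or cultures, and the design text speaks of duplicates where the labels give 3 libraries, so p-values measure only the spread between these libraries.

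The libraries held between 20258209 and 28227696 counts. Pcif1 itself was at 39.3 to 42.8 CPM (counts scaled to a common library size with edgeR's TMM factors) in Pcif1fl/fl and 37.8 to 39.7 CPM in Pcif1 CKO MSCs, and counts summed over the gene do not show the deleted exons. Pcif1fl/fl replicate 3 stood apart, with 3.63% of its counts on mitochondrial genes against 1.40% to 1.57% in the other libraries. The cultures held several cell types. Of 8 mesenchymal stroma markers, 2 were lower in Pcif1 CKO at an adjusted p under 0.05 in edgeR (Eng and Pdgfra, at -1.11 and -0.42 on the log2 scale) and 2 were higher (Thy1 and Col1a2, at 1.52 and 0.64). Their sum did not overlap between groups, at 3966 to 5366 CPM in Pcif1fl/fl and 6831 to 7126 CPM in Pcif1 CKO MSCs, but most of it was the collagen gene Col1a2. Without Col1a2 the other 7 summed to 614 to 740 CPM and 626 to 650 CPM and overlapped, and Prrx1 itself was at 236 and 280 CPM (adjusted p = 0.303, edgeR). Sums of 8 macrophage markers overlapped, at 26550 to 28645 CPM in Pcif1fl/fl and 25535 to 29703 CPM in Pcif1 CKO MSCs. Most of this sum was Lyz2, at 24321 and 23900 CPM, so the overlap mainly describes that gene. The log2 fold changes of the other macrophage markers ran from -0.30 (Cd68) to 0.67 (Cd14). Of 8 osteoblast markers, 3 were lower by the same rule, as were 4.51% of all genes tested, 1 was higher, as were 2.88%, and Bglap had 1 to 5 counts in a library. Of 5 adipocyte markers with a row, 4 were lower, and Adipoq fell from 47.0 to 0.824 CPM. The other 3 lower ones, Plin1, Cfd and Cidec, had at most 1 read in a Pcif1 CKO library and Adipoq had 33, 14 and 6, so all 4 were kept by the expression filter through the Pcif1fl/fl group, where they were high. The fifth, Fabp4, was at 71.9 CPM in Pcif1fl/fl and 98.6 CPM in Pcif1 CKO MSCs (adjusted p = 0.0545, edgeR) and made up most of the sum, which was 118 to 130 CPM in Pcif1fl/fl and 86.0 to 108 CPM in Pcif1 CKO MSCs. Endothelial markers summed to at most 36.2 CPM in any library, 3 chondrocyte markers to at most 49.7 CPM and neutrophil markers to at most 1.44 CPM. Of the chondrocyte markers Comp was lower (-1.10 on the log2 scale), while Col2a1 and Sox9 had log2 fold changes of 0.69 and 0.017 and did not pass. The neutrophil marker S100a8 was higher, from 14, 8 and 14 reads to 31, 27 and 23, and was kept by the filter through the Pcif1 CKO group. The part of cell makeup in the differences given below was not tested. Xist was at 232 to 443 CPM in Pcif1fl/fl and 0.722 to 1.79 CPM in Pcif1 CKO MSCs, and 4 Y-linked genes summed to between 115 and 159 CPM and between 219 and 230 CPM, so the sex makeup of the cultures cannot be told apart from genotype.

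Because PCIF1 acts on transcripts that begin with A, the annotated start of the ligand and carrier transcripts is shown for Wnt11 and Wnt4, which were the most reduced, for Wnt16, which begins with A, and for Wls, the most abundant. Each run is 30 bases of the GRCm38.p6 assembly from RefSeq, read 5′ to 3′ on the plus strand, with the first transcribed base in capitals.
Wnt11, first start (chr7:98835097-98835126): gccggcgggcgccgcAgatcgtgccgggcg
Wnt11, second start (chr7:98838830-98838859): cgcgctagggtctcaCctaatccgagcctg
Wnt4 (chr4:137277620-137277649): cacctgccgccccgaCgggagccttgcggc
Wnt16 (chr6:22288212-22288241): tggagacacagagacAtcagcagaagtttc
Wls (chr3:159839635-159839664): ggagggaggaagcgcGagagggagggagga
Wnt5a and Porcn are not among these RefSeq starts, and the other 8 genes have 11. An A opened 2 of the 11, in Wnt11 and Wnt16, against 34.4% of all 32851 RefSeq starts of the mouse. In the GENCODE M21 annotation, 9 of 30 coding transcripts of the 10 genes began with A, against 30.9% of 58797. These were both of the coding transcripts of Wnt5a, the only one of Wnt2b, 3 of 4 of Wnt16, 2 of 7 of Wnt10b and 1 of 3 of Wnt11, while Wnt4, Wnt5b, Wnt9a, Porcn and Wls had none. RefSeq gave Wnt2b a start with G, so the first base depends on the annotation. The start each cell used was not measured here.

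All 10 genes were counted well enough to be tested. By the quasi-likelihood test of edgeR, Benjamini-Hochberg adjusted over 13733 genes, 3 of the 10 were lower in Pcif1 CKO MSCs (Wnt4, Wnt11 and Porcn), 1 was higher (Wnt5a), and 6 did not pass. Of all genes tested, 4.51% were lower and 2.88% higher by the same rule. With a fold change of at least 2 as well, 2 of the 10 were lower and 0 higher, against 2.50% and 1.03% of all genes. DESeq2 and limma-voom also put 2 of the 10 lower and 0 higher at that fold, and 0 were 2-fold higher at an unadjusted p under 0.05. At an unadjusted p under 0.05, 4 of the 10 were lower, with Wnt2b added, and 2 higher, with Wnt5b added, against 11.8% and 9.56% of all genes. Every Pcif1 CKO library lay below every Pcif1fl/fl library for 4 genes, where 15.7% of all genes did so, and above for 5 genes, where 15.0% did. The ligands and secretion genes had a median log2 fold change of 0.29, against 0.0017 for all genes tested. The call in the higher direction rests on Wnt5a alone and was lost in 6 of 13 alternatives. Fewer cells of a type and less RNA per cell cannot be told apart in these bulk libraries.

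**Figure D1:**
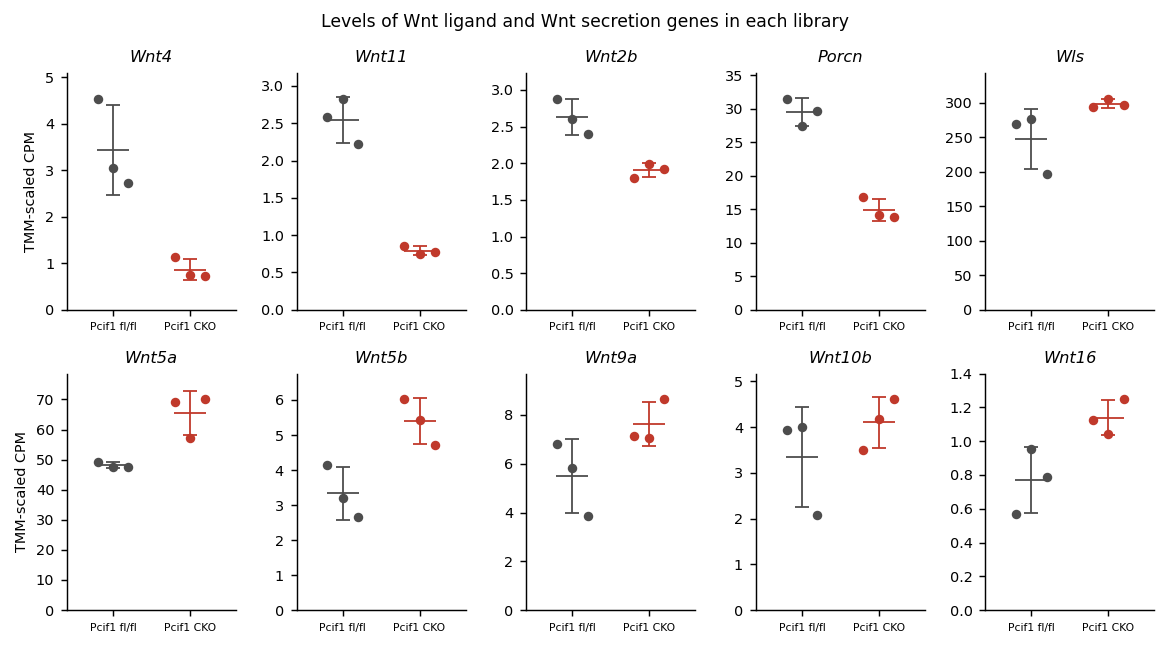
Level of each gene in CPM scaled by the TMM factors of edgeR (y axis, from 0, its own range for each gene) in Pcif1fl/fl (grey) and Pcif1 CKO (red) MSCs. Points are libraries, in the order of replicates 1 to 3, and the bars give the mean and SD (n = 3). Wnt4, Wnt11, Wnt2b and Porcn have no overlap between groups and are lower in Pcif1 CKO, and in Wnt10b the groups overlap.

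Wnt4 is a ligand of kidney, gonad and bone development that can act with or without beta-catenin. Its gene (ENSMUSG00000036856) lies on chromosome 4 from 137277489 to 137299726 on the plus strand. Replicates 1 to 3 of Pcif1fl/fl gave 104, 83 and 76 reads (4.54, 3.05 and 2.73 CPM), and those of Pcif1 CKO gave 25, 15 and 15 reads (1.13, 0.747 and 0.722 CPM). Every Pcif1 CKO library was far below every Pcif1fl/fl library. The Pcif1fl/fl mean was 3.44 ± 0.969 CPM and the Pcif1 CKO mean 0.865 ± 0.226 CPM (SD, n = 3 each), and the fitted fold left 25.5% of the level. The log2 fold change was -1.97 (SE 0.30, 95% interval -2.67 to -1.28, adjusted p = 0.00605 in edgeR's quasi-likelihood test). No other annotated gene overlaps its exons.

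Wnt11, usually classed as a ligand that acts without beta-catenin, was the other strongly reduced gene. It lies on chromosome 7 from 98835112 to 98855195 on the plus strand (ENSMUSG00000015957), and the antisense gene Gm8398 covers 8.80% of its exons, so that reads of both could be counted together if strand was not used. From 59, 77 and 62 reads in the Pcif1fl/fl libraries the count went to 19, 15 and 16 reads in the Pcif1 CKO libraries. The 3 Pcif1 CKO values lay close together and all under the Pcif1fl/fl ones, and the fitted fold left 31.3% of the level (95% interval of the fold 0.213 to 0.459, adjusted p = 0.00437 in edgeR's quasi-likelihood test).

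A stretch of 30 bases upstream of the first Wnt11 start is shown because it holds the core letters of the motif of TCF and LEF factors, the DNA-binding partners of beta-catenin. It comes from RefSeq on GRCm38.p6 and is read on the plus strand, with the match in capitals.
Wnt11, upstream (chr7:98835050-98835079): gacgtgggcggaTCAAAGcgacggtccgcg
The motif searched was CTTTGA on both strands, which reads TCAAAG on the other, over 250 bases before to 50 bases after each start. The Wnt11 match lies 50 to 45 bases before the start. It was the only match at this start, and among the 11 starts of these genes 1 more held it, the third of Wnt5b, 71 bases upstream. Of all RefSeq promoter windows of this length, 16% held it. A match of letters does not show binding.

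Wnt2b, a ligand of the beta-catenin class, was at 2.88, 2.61 and 2.40 CPM in the Pcif1fl/fl libraries and at 1.80, 1.99 and 1.92 CPM in the Pcif1 CKO libraries. The groups did not overlap. The log2 fold change of -0.46 (SE 0.20, 95% interval -0.92 to -0.0079) did not pass after adjustment (adjusted p = 0.226, edgeR).

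Wnt5a, the ligand best known for signalling through Ror receptors and planar polarity, was the most abundant ligand of the cultures and the only gene of the 10 that rose by the test. It lies on chromosome 14 from 28504750 to 28527448 on the plus strand (ENSMUSG00000021994), and the antisense gene Gm2670 covers 4.58% of its exons. Replicates 1 to 3 of Pcif1fl/fl were at 49.3, 47.5 and 47.6 CPM, and those of Pcif1 CKO at 69.2, 57.1 and 70.2 CPM. The Pcif1fl/fl libraries were nearly level, and all 3 Pcif1 CKO libraries were above them, replicate 2 least. The level in Pcif1 CKO was 136% of that in Pcif1fl/fl, a log2 fold change of 0.45 (SE 0.11, 95% interval 0.20 to 0.69, adjusted p = 0.0415 in edgeR's quasi-likelihood test). Of 13 alternatives, 6 lost this call, among them those without Pcif1fl/fl replicate 1 (adjusted p = 0.0805) or 2 (0.128), without Pcif1 CKO replicate 1 (0.199) or 3 (0.202), and the one scaled to total counts (0.0511), all in edgeR.

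Wnt5b, the close relative of Wnt5a, was at 4.15, 3.20 and 2.65 CPM in the Pcif1fl/fl libraries and at 6.03, 5.43 and 4.71 CPM in the Pcif1 CKO libraries. The groups did not overlap, and the fold change was 1.62 (95% interval 1.16 to 2.27), beside 1.36 for Wnt5a, a difference between genes that was not tested. It did not pass after adjustment (adjusted p = 0.0906, edgeR).

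Wnt9a, a ligand of joint and cartilage formation, was at 6.81, 5.81 and 3.84 CPM in the Pcif1fl/fl libraries and at 7.16, 7.07 and 8.66 CPM in the Pcif1 CKO libraries. All Pcif1 CKO values were above the Pcif1fl/fl ones, though Pcif1fl/fl replicate 1 lay close to them. Its log2 fold change was 0.48 (95% interval -0.029 to 0.99, adjusted p = 0.262, edgeR), and 0.28 without Pcif1fl/fl replicate 3, the library that stood apart.

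Wnt10b, a beta-catenin ligand that favours osteoblasts over adipocytes, measured 3.93, 4.01 and 2.08 CPM in replicates 1 to 3 of Pcif1fl/fl and 3.51, 4.18 and 4.62 CPM in those of Pcif1 CKO. The groups overlapped. Its log2 fold change of 0.30 (95% interval -0.32 to 0.92, adjusted p = 0.576, edgeR) went to 0.048 without Pcif1fl/fl replicate 3.

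Wnt16, a ligand known for cortical bone mass, had the lowest level of the 10 in Pcif1fl/fl MSCs, with 13, 26 and 22 reads in the Pcif1fl/fl libraries and 25, 21 and 26 reads in the Pcif1 CKO libraries. On the CPM scale the groups did not overlap, at 0.568 to 0.956 and at 1.05 to 1.25 CPM. Its log2 fold change of 0.55 had an interval from -0.14 to 1.24 (adjusted p = 0.343, edgeR), so that neither no change nor a doubling lay outside it.

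Porcn, without whose acyl transfer Wnt proteins are not secreted, fell by nearly 2-fold. The gene (ENSMUSG00000031169) lies on chromosome X from 8193848 to 8206525 on the minus strand, and no other annotated gene overlaps its exons. Its Pcif1fl/fl replicates 1 to 3 stood at 31.5, 27.4 and 29.6 CPM, and its Pcif1 CKO replicates at 16.8, 14.1 and 13.8 CPM. The groups lay far apart beside their spread. The means were 29.5 ± 2.06 and 14.9 ± 1.64 CPM (SD, n = 3 each), and the fitted fold left 50.5% of the level. The log2 fold change of -0.98 (SE 0.12, 95% interval -1.27 to -0.70, adjusted p = 0.00223 in edgeR's quasi-likelihood test) was just short of 2-fold, and passed 2-fold with scaling to total counts and without Pcif1fl/fl replicate 2 or Pcif1 CKO replicate 1.

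Since Xist differed between the groups, Porcn was set beside other X-linked genes. Of 455 X-linked genes tested apart from Xist, 6.81% were lower and the median log2 fold change was -0.027, against 4.43% and 0.0026 for 13261 autosomal genes. On the X chromosome, 20 of the 455 genes had a log2 fold change at or under that of Porcn, Porcn included. The 3 nearest tested genes on either side had log2 fold changes from -0.21 to 0.92. None of these 6 passed by edgeR, DESeq2 or limma-voom, and 2 had an unadjusted p under 0.05 in edgeR. The part of sex makeup in the fall of Porcn was not tested.

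Wls, the carrier of all these ligands, was the most abundant of the 10. Pcif1fl/fl replicates 1 to 3 held 270, 276 and 197 CPM and the Pcif1 CKO replicates 294, 306 and 296 CPM. Every Pcif1 CKO library was higher, but the low value was again Pcif1fl/fl replicate 3. The log2 fold change was 0.27 (95% interval -0.031 to 0.58, adjusted p = 0.287, edgeR) and 0.13 without that library.

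**Figure D2:**
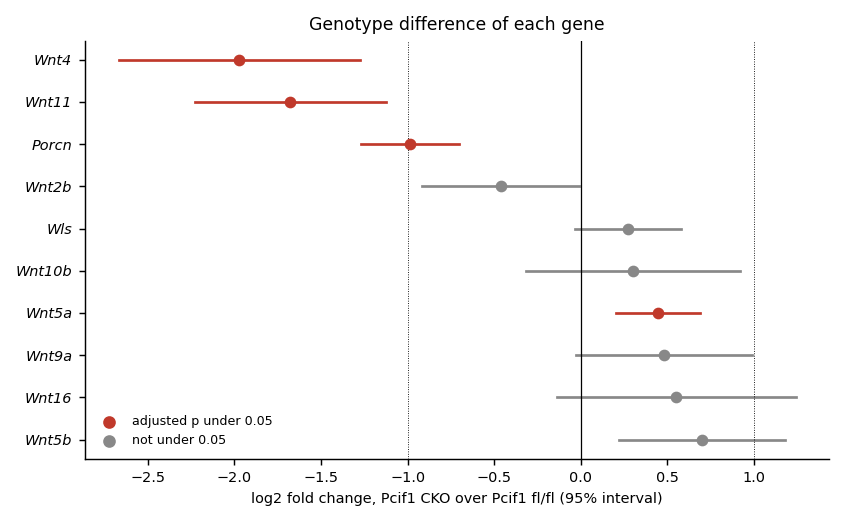
Log2 fold change of Pcif1 CKO over Pcif1fl/fl for each gene (x axis), with its 95% interval from edgeR's quasi-likelihood fit, on 3 libraries a group. Red marks an adjusted p under 0.05, and dotted lines mark 2-fold. Wnt4, Wnt11 and Porcn lie to the left and Wnt5a to the right, and the intervals of Wnt2b and Wnt5b exclude 0 on opposite sides without passing after adjustment.

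To compare the genes with each other, CPM was divided by exonic length in kilobases. On this scale of levels Wls led in Pcif1fl/fl MSCs at 28.2 ± 5.02, followed by Porcn at 9.84 ± 0.687 and Wnt5a at 6.15 ± 0.126 (SD, n = 3). The next ligands ran from Wnt9a at 1.65 through Wnt5b, Wnt10b, Wnt4 and Wnt2b to Wnt11 at 0.615, and each of these overlapped its neighbour in the order. Wnt16 was lowest, at 0.177. In Pcif1 CKO MSCs Wnt5a, at 8.38 ± 0.930, stood above Porcn, at 4.97 ± 0.545. Wnt4 (0.206) and Wnt11 (0.191) had moved to the bottom of the order, overlapping each other, and Wnt4 also overlapped Wnt16 (0.262). With the longest transcript as the length, Wls was at 69.5 per kilobase in Pcif1fl/fl, because its annotated exons together span 8792 bases and its longest transcript 3559.

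**Figure D3:**
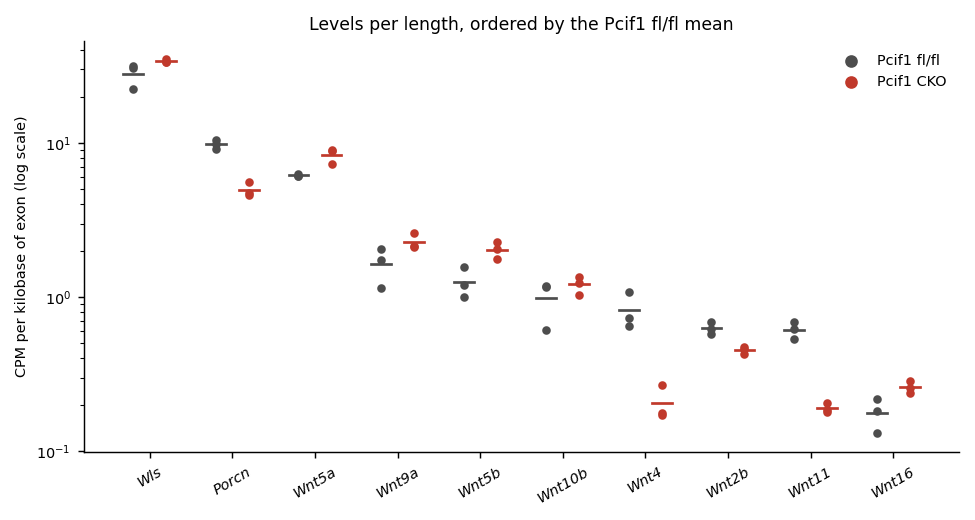
Level of each gene in CPM per kilobase of annotated exon (y axis, log scale), ordered by the Pcif1fl/fl mean. Points are libraries and lines are group means, grey for Pcif1fl/fl and red for Pcif1 CKO (n = 3 each). Porcn and Wnt5a change places between the groups, Wnt4 overlaps Wnt16 in Pcif1 CKO, and Wnt11 lies below Wnt16 there.

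Summed over the 16 Wnt genes in the table, the ligand level per kilobase was 13.9, 12.9 and 11.1 in Pcif1fl/fl and 16.1, 14.2 and 16.4 in Pcif1 CKO replicates 1 to 3. The groups did not overlap, and the difference was 2.91, with p = 0.1 in a two-sided exact permutation test, the smallest p that 3 libraries against 3 can give. Wnt5a made up 49.0% ± 4.95 (SD, n = 3) of the sum in Pcif1fl/fl and 53.7% ± 2.08 (SD, n = 3) in Pcif1 CKO MSCs. Without Wnt5a the sums were 6.49 and 7.18 and overlapped (exact p = 0.6). Wnt4 and Wnt11 together went from 11.3% ± 0.872 (SD, n = 3) of the sum to 2.55% ± 0.384 (SD, n = 3). This pair was chosen because both genes were called lower in the same libraries, so its share is a description with no test.

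The other 11 mouse Wnt genes were Wnt1, Wnt2, Wnt3, Wnt3a, Wnt6, Wnt7a, Wnt7b, Wnt8a, Wnt8b, Wnt9b and Wnt10a, of which Wnt3a, Wnt8a and Wnt9b had no row of counts. Of the other 8, only Wnt7b passed the expression filter, with 8, 25 and 17 reads in Pcif1fl/fl and 19, 12 and 31 in Pcif1 CKO replicates 1 to 3. Pcif1fl/fl replicate 1 was under the 0.442 CPM of the filter and all 3 Pcif1 CKO libraries were above it. Wnt7b was therefore kept through the Pcif1 CKO group, where its mean was higher. The groups overlapped (log2 fold change 0.63, 95% interval -0.43 to 1.68, adjusted p = 0.492, edgeR). Wnt1, Wnt3, Wnt7a and Wnt8b had at most 3 reads in any library. Wnt2, Wnt6 and Wnt10a had 1 to 11 reads and did not pass the expression filter. Wnt10a had 1 read in each Pcif1fl/fl library and 2, 4 and 6 in Pcif1 CKO replicates 1 to 3. These 7 genes were not compared between the groups.

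The machinery around the ligands was described by lists of genes. Of 21 genes of Wls traffic and Wnt release (p24 cargo receptors, retromer, sorting nexins, glypicans and partners), 19 were tested, 0 were lower and 1 was higher at an adjusted p under 0.05 in edgeR, where 4.51% and 2.88% of all genes were. At an unadjusted p under 0.05 in edgeR 3 were lower, where 11.8% of all genes were, and DESeq2 called 1 lower and limma-voom 0. The gene that was higher was the phosphoinositide phosphatase Mtm1, with a log2 fold change of 0.57, named after its value was seen. The median log2 fold change of the list was 0.067, near that of all genes.

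Among 16 receptor and co-receptor genes, 15 were tested, 6 were lower (Fzd1, Fzd4, Fzd5, Fzd8, Fzd9 and Ror1) and 0 higher, and the median log2 fold change was -0.30, against 0.0017 for all genes. In all genes tested 4.51% were lower and 2.88% higher, and 2.50% and 1.03% at 2-fold or more, so that 0 higher genes in a list of this size, or in the 3 lists that follow, is near the background. At 2-fold or more these were Fzd4 (-1.36 on the log2 scale), the Wnt5a receptor Ror1 (-1.64) and Fzd9. Fzd9 had 16, 12 and 16 reads in Pcif1fl/fl and 2, 2 and 3 reads in Pcif1 CKO replicates 1 to 3, so it passed the filter only through the group where it was higher, and no fold is given for it. Ror2, the relative of Ror1 and named after its value was seen, had a log2 fold change of 0.096 (adjusted p = 0.69, edgeR). Of the 16 tested genes of the beta-catenin cascade, 2 were lower and 0 higher, which were the transcription factor Tcf7l1 (-1.19) and the beta-catenin cofactor Pygo1 (-1.03). Of 7 tested feedback targets, 3 were lower and 0 higher, namely the Dishevelled antagonists Nkd1 (-2.90) and Nkd2 (-1.40) and the R-spondin receptor Lgr5 (-1.47). Axin2, the target most used as a readout of beta-catenin and likewise named afterwards, had a log2 fold change of 0.099 (adjusted p = 0.796, edgeR). Of 20 tested genes of the planar polarity and calcium branch, 3 were lower (Vangl2, Prickle2 and Daam2, named after their values were seen) and 0 higher, with none at 2-fold. In these last 4 lists, DESeq2 and limma-voom also called 0 genes higher. At an unadjusted p under 0.05 in edgeR, 9 of 15, 5 of 16, 3 of 7 and 3 of 20 genes were lower, against 11.8% of all genes. By that rule 1 gene was higher in each but the polarity list, where there were 0, against 9.56% of all genes.

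**Figure D4:**
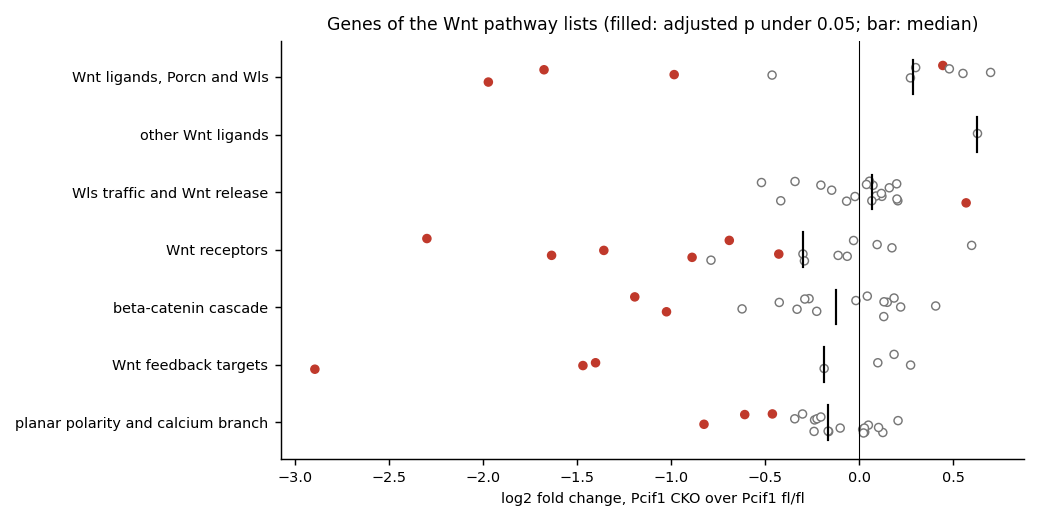
Log2 fold change of Pcif1 CKO over Pcif1fl/fl (x axis) for each tested gene of the Wnt ligand and secretion set and of 6 further lists (y axis). Filled points have an adjusted p under 0.05 in edgeR's quasi-likelihood test and bars are medians, on 3 libraries a group. The ligand set holds 3 lower calls and 1 higher, Wnt5a, which passed in 7 of 13 alternatives. The receptor, cascade, feedback and polarity lists, with 15, 16, 7 and 20 genes tested, hold 6, 2, 3 and 3 lower calls and 0 higher ones. Of all genes tested, 4.51% were lower and 2.88% higher, and the lists were not tested against each other. The leftmost receptor point, Fzd9, rests on 2 to 3 reads a library in Pcif1 CKO.

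Genes whose log2 CPM ran most like a called member over the 6 libraries were listed out of 12637 with a mean of at least 1 CPM. As all 6 points share the genotype step, these values are a description. For Wnt4 they were Frmd5, the homeobox gene Msx1 and the cartilage matrix gene Comp (Pearson r = 0.9947, 0.9946 and 0.9940). For Wnt11 they were Acadm, Wdr86 and Pcsk6 (r = 0.9989, 0.9974 and 0.9973), and for Porcn Bmp6, Svep1 and Mmd (r = 0.9985, 0.9980 and 0.9972). For Wnt5a, which rose, they were the T-box factor Tbx2, Rwdd4a and Arntl2 (r = 0.9916, 0.9915 and 0.9912).

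The 4 called genes were refitted in 13 other ways, with another tool, scaling or filter, with a replicate block, or with 1 library left out. The lower level of Wnt4, Wnt11 and Porcn passed in 13 of 13, and the largest adjusted p-values were 0.0424, 0.0307 and 0.0222. Wnt5a kept its direction in 13 of 13 and passed in 7, with log2 fold changes from 0.40 to 0.54.

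**Figure D5:**
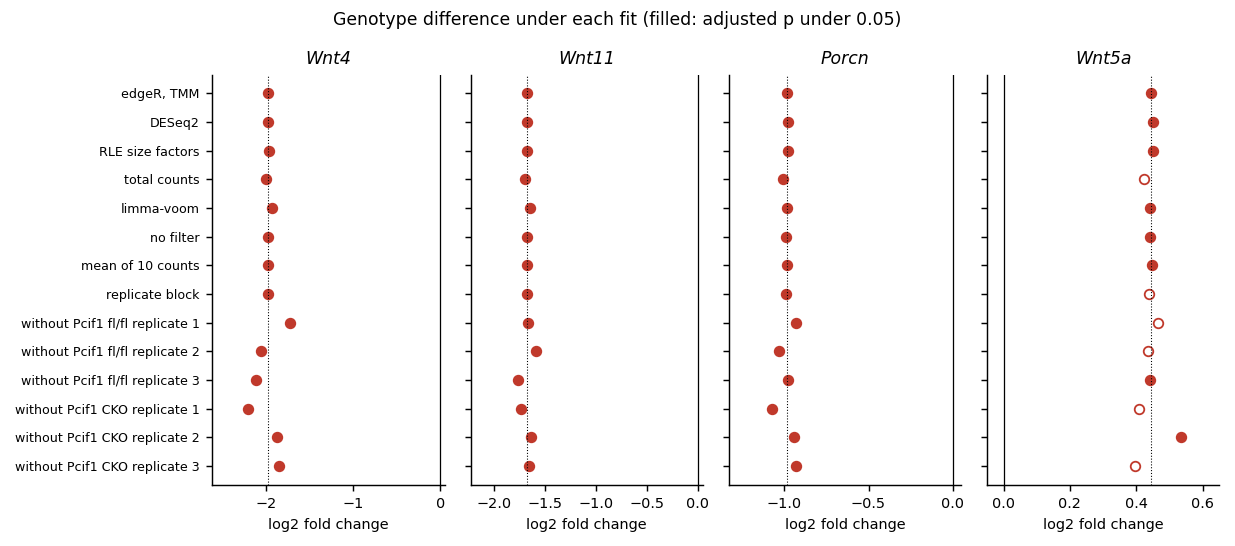
Log2 fold change of Pcif1 CKO over Pcif1fl/fl (x axis) of the 4 called genes under each way of fitting the counts (y axis). Filled points have an adjusted p under 0.05, the dotted line is the reported value and the solid line is 0. Wnt4, Wnt11 and Porcn are filled throughout, and Wnt5a is filled in the reported fit and in 7 of 13 alternatives.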

How the data were processed

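Poly(A) RNA of 3 Pcif1fl/fl and 3 Pcif1 CKO MSC libraries was sequenced by the authors on Illumina in paired-end mode. The deposited values are raw counts of reads per gene, which the authors obtained after mapping clean reads to mm10 with HISAT2. Which counting program and gene models were used, and whether by strand, is not given in the sources used here. The sample labels gave the groups and replicates. Of 20163 rows, 92 repeat an Ensembl ID with equal counts, and each of the 20071 IDs was used once. Positions and exonic lengths came from GENCODE M21 (GRCm38), which held 20059 IDs, and start sequences from RefSeq (GRCm38.p6).

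The tests were run in edgeR 4.0.16 under R 4.3.3 (filterByExpr, TMM, glmQLFit and glmQLFTest, no covariate), two-sided, with Benjamini-Hochberg adjustment over the 13733 genes that passed the filter and a threshold of 0.05. Standard errors are log2 fold changes divided by the root of F, and 95% intervals use the t distribution of the fit. Levels per kilobase are CPM over the union of exons. Sums were compared by exact permutation over libraries in Python 3.11.15, and SciPy 1.17.1 gave the t quantiles of the intervals. Genes with at most 3 counts per library were taken as at the floor. The library totals of 20258209 to 28227696 counts set the precision, and intervals cover counting error and the spread between libraries.

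The genes, lists and tests were chosen with earlier results of these data known. All 10 genes are named, and genes of the pathway lists are named where they passed at 2-fold or more. Outside this rule, and after their values were seen, Mtm1, Fzd1, Fzd5, Fzd8, Vangl2, Prickle2 and Daam2, which passed under 2-fold, and Ror2 and Axin2, which did not pass, are named too. For each gene that passed, the 3 genes with the most similar log2 CPM are given. Alternatives tried were DESeq2 1.42.0 (used by the study), RLE and total-count scaling, limma-voom (limma 3.58.1), no filter, a minimum mean of 10 counts, a block for the replicate number, leaving out each library, and, for levels, the longest transcript as length. The edgeR, replicate-block, DESeq2 and limma-voom fits were run on counts simulated with a common dispersion. There, 200 genes had planted log2 changes of 2 up or down. Each fit called all 200 in the right direction, with 14 to 21 false calls. Smaller changes, such as those of Wnt5a and Porcn, and a library that stands apart were not simulated.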

Additional observations from a re-analysis of the deposited data

How the results depend on the processing

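Wnt4, Wnt11 and Porcn stayed lower at an adjusted p under 0.05 in 13 of 13 alternatives, with log2 fold changes of -2.21 to -1.73, -1.76 to -1.59 and -1.07 to -0.93 and adjusted p-values up to 0.0424, 0.0307 and 0.0222 (edgeR, DESeq2 or limma-voom as named). All 10 genes kept their direction in all 13. Wnt5a passed in 7 of 13, with adjusted p-values from 0.00228 to 0.202. The number of genes that were higher was therefore 0 with total counts (Wnt5a adjusted p = 0.0511) and 0 with the replicate block (log2 fold change 0.44, adjusted p = 0.082), and it was 0 to 1 when single libraries were left out. The replicate block changed no other call among the 10. Same-numbered libraries did not deviate together (r = 0.0554, -0.045 and -0.013 for numbers 1 to 3), so the numbers were not taken as pairs. Wnt5b did not pass in any alternative (adjusted p 0.0545 to 0.301), nor did Wnt2b, Wnt9a, Wnt10b, Wnt16 and Wls. Of the 16 group shares of single ligands in the summed level, 5 moved by more than the spread between libraries with the longest transcript as length. The difference in the summed ligand level was 2.16 to 3.57 across its alternatives, always higher in Pcif1 CKO. Depth limits the lowest genes, with 13 to 26 reads a library for Wnt16 and 15 to 25 and 15 to 19 in the Pcif1 CKO libraries for Wnt4 and Wnt11.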
